A study of Mus musculus with 9 samples.

Results

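Adipokines are hormones that fat cells release into the circulation. Of the 19094 genes listed in RNA-seq of differentiating 3T3-L1 cells, 10 that encode such hormones were chosen by symbol, with complement factors and C1q/TNF proteins left out. They are Adipoq, Retn, Retnla, Lep, Rarres2, Nampt, Apln, Agt, Sfrp5 and Fgf21. Most of them are silent or low in fibroblast-like precursors and are switched on as adipocytes form, under factors such as PPARG and C/EBPA. In adipose tissue they report on fat stores, as leptin does, or act on insulin sensitivity, inflammation, blood vessels and blood pressure. Some are made mainly elsewhere in the body, such as FGF21 and angiotensinogen in the liver.

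The 3T3-L1 line is a mouse fibroblast-like line that becomes lipid-storing adipocytes in culture, and the groups differ in the labels only by day. Day 0 cells were confluent and had not yet received dexamethasone, IBMX and insulin. By day 4 the cells had been induced for 2 days and then kept for 2 days with insulin alone, and by day 8 they had been kept with insulin for 4 days longer. Each day had 3 replicates, 9 samples in all. The methods of the study state that cells were pooled within each stage and describe the samples as mixtures of RNA taken from different stages, so how far RNA of another stage is present in a sample is unknown. Nothing says that replicates were separate cultures, so p-values measure the spread between these samples, which may be technical. All values are from bulk RNA, in which fewer cells expressing a gene and less of its RNA per cell cannot be told apart.

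The sequencing depth ranged from 18216114 to 20452144 expected counts in a sample, at which 3 counts of a gene are 0.147 to 0.165 CPM, the count scaled to the depth. Floors and intervals given below cover counting error only. Levels are FPKM, which is scaled to gene length and sample depth, so that genes can be compared. Changes are log2 fold changes fitted by edgeR to the counts of all 9 samples, with p-values adjusted (Benjamini-Hochberg) over the 13154 genes that passed a filter on low counts. A gene was called where the adjusted p was under 0.05 and the change was above 2-fold. The early phase is day 4 against day 0, the late phase day 8 against day 4 and the whole process day 8 against day 0. Any pair of these comparisons shares the samples of a day. Of the 10 adipokine genes, 9 passed the filter, and Fgf21 did not.

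Markers of fibroblasts and of adipocytes were both present. The fibroblast and preadipocyte gene Dlk1 stood at 827.6 ± 33.5 FPKM at day 0, and the collagen gene Col1a1 at 1540 ± 39.0 FPKM (SD, n = 3). The summed level of 8 fibroblast and preadipocyte markers lay between 3535 and 3809 FPKM in the day 0 samples, was lower on day 4 (2536 to 2715 FPKM) and was highest on day 8 (4942 to 5041 FPKM). Col1a1 was the most abundant of them in every sample and none was at 0. In the early phase 2 of the 8 were called lower and 0 higher, and in the late phase 2 were called higher, Dlk1 and Col3a1 (log2 change 1.24, SE 0.06, and 1.26, SE 0.08), and 0 lower. Over all tested genes 9.77% were called higher and 7.98% lower early, and 4.24% and 2.81% late. Over the whole process Col3a1 was called higher and Ly6a and Cd34 lower. The high day 8 sum was carried by Col1a1 (2270 ± 18.3 FPKM) and Col3a1 (1891 ± 48.5 FPKM), while Dlk1 was at 415.3 ± 5.57 FPKM and Ly6a at 38.8 ± 1.23 FPKM, below their day 0 levels. The summed level of 10 adipocyte markers lay between 169.4 and 176.9 FPKM in the day 0 samples, 6047 and 8427 FPKM in the day 4 samples and 8219 and 8940 FPKM in the day 8 samples. All 10 were called higher in the early phase, with Fabp4 the most abundant from day 4 on. At day 0 the most abundant was Lpl, and no adipocyte marker was at 0 in any sample. Since the extraction text of the labels names dorsal root ganglia, 10 sensory neuron markers were also summed. Their sum was 0.58 to 3.19 FPKM, led in every sample by Avil at no more than 2.62 FPKM, and 2 to 6 of the 10 were at 0 in a sample.

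Promoters are shown here for 5 of the genes, as the 150 bases before the transcription start in RefSeq (build GRCm38.p6), written 5′ to 3′ along the gene. Adipoq, Retn and Agt are shown because their RNA reached the highest levels at day 4. Retnla and Lep are shown because their windows hold a C/EBP match. Capitals mark a match to a searched motif on either strand.
Adipoq, chr16:23146386-23146535, plus strand: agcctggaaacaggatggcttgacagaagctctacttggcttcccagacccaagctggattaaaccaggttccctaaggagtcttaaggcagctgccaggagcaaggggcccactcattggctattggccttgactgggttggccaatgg
Retn, chr8:3655620-3655769, plus strand: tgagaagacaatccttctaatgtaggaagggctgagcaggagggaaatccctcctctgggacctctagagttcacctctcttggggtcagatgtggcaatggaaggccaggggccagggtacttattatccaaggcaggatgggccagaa
Agt, chr8:124569707-124569856, minus strand: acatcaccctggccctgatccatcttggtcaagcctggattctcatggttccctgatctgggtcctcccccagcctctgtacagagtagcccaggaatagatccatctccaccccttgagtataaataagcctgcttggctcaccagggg
Retnla, chr16:48842459-48842608, plus strand: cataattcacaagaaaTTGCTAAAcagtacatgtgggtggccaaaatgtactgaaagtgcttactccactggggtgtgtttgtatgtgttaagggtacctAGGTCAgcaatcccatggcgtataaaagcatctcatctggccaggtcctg
Lep, chr6:29060071-29060220, plus strand: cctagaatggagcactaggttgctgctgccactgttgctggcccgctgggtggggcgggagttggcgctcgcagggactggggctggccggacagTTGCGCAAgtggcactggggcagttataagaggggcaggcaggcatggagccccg

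RefSeq windows of 300 bases, from 250 before to 50 after the start, were available for 9 of the 10 genes, not for Rarres2. The C/EBP motif TTGCNNAA was in 2 of the 9, Lep and Retnla, and in 10.8% of all 32851 windows. In Lep the match TTGCGCAA began 55 bases before the start and reads the same on both strands. In Retnla the match TTGCTAAA began 134 bases before the start, and the nuclear receptor hexamer AGGTCA began 50 bases before it. AGGTCA was in 2 of the 9 windows (Retnla and Nampt) and in 16.3% of all windows. The PPAR/RXR repeat, AGGTCA followed by any base and AGGTCA again, was in none of the 9 and in 0.0396% of all windows. The cyclic AMP motif TGACGTCA was in 0 of the 9 and 1.79% of all windows, and its shorter form TGACG was in 3 (Nampt, Sfrp5 and Fgf21) and 20.8%. The glucocorticoid receptor motif, AGAACA and TGTTCT with any 3 bases between, was in 0 of the 9 and 0.00913% of all windows. The E-box CACGTG was in Fgf21 and 7.15% of all windows, and ACGTG, which the E-box contains, was in Fgf21 and Nampt and 19.6% of all windows. A match is a description of the letters, not of a bound site.

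The 9 tested adipokine genes shared an early rise and differed after it. In the early phase all 9 tested genes were called higher and none was called lower, against 9.77% of all tested genes called higher and 7.98% called lower. The filter on low counts bears on this count, since Retnla and Sfrp5 passed it only through their day 4 samples, while Fgf21, lowest on day 4, did not pass. Adipoq, Retn and Lep also had day 0 samples with fewer than 10 counts and passed through later days. With at least 10 counts in every sample 4 adipokine genes were called higher. By the adjusted p alone all 9 were higher, against 35.5% of tested genes higher and 33.7% lower. In the late phase Lep, Rarres2 and Apln were called higher and Retnla, Agt and Sfrp5 lower, against 4.24% and 2.81% of tested genes. By the adjusted p alone 5 of the 9 were higher and 4 lower, against 22.5% and 22.7% of tested genes. Here too the filter bears on the count, since Retnla and Sfrp5 passed it through day 4 and Lep had 10 or more counts in all 3 samples only at day 8. Adipoq, Retn and Nampt changed by less than 2-fold in the late phase. The fibroblast marker sum was higher in every day 8 sample than in any day 4 sample, and by the adjusted p alone 5 of its 8 genes were higher and 1 lower in the late phase. The late log2 changes were 1.26 for Col3a1, 1.24 for Dlk1, 0.88 for Pdgfrb, 0.85 for Col1a1 and 0.45 for Thy1, and -0.09 for Ly6a, -0.55 for Cd34 and -0.59 for Pdgfra. The part of that marker level in the late falls was not tested. Over the whole process 8 of the 9 were called higher and none lower, against 10.3% and 7.7% of tested genes. The filter bears on this count as well, and with at least 10 counts in every sample 4 were called higher. A rise followed by a further rise, both called, was found in 1.47% of tested genes, and a rise followed by a fall in 1.51%. The median log2 fold change of the 9 genes was 6.38 in the early phase (5.82 with Lep at its lower bound), 0.38 in the late phase and 3.84 over the whole process. The medians of all tested genes were 0.02, -0.01 and -0.02. The 10 genes together accounted for between 0.0126% and 0.0128% of the counts of a day 0 sample, 0.251% and 0.295% in a day 4 sample and 0.215% and 0.238% in a day 8 sample.

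**Figure D1:**
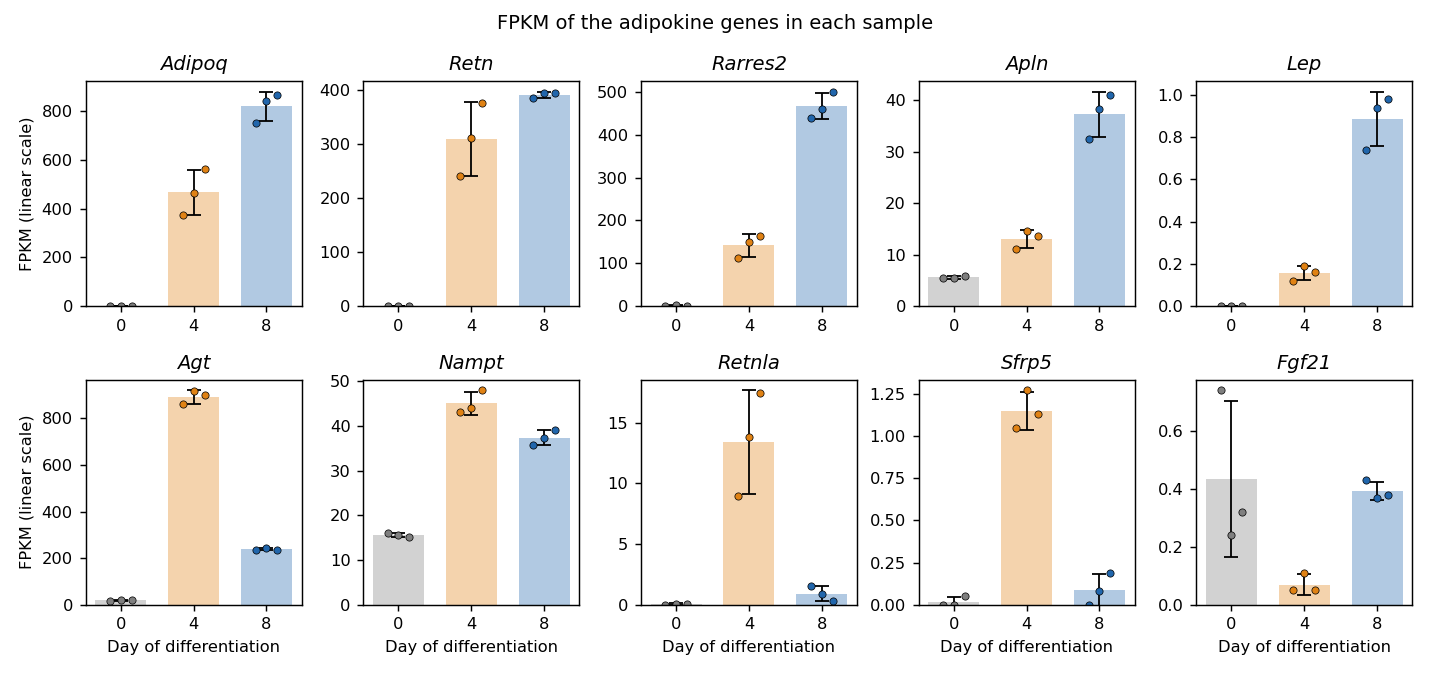
FPKM (y axis, linear and scaled separately per gene) of each of the 10 adipokine genes against the day of differentiation. Points are samples, bars the mean of 3 replicates and lines the SD. Adipoq, Retn, Rarres2, Apln and Lep have their highest mean at day 8, Agt, Nampt, Retnla and Sfrp5 at day 4, and Fgf21 at day 0.

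Adipoq (NCBI gene 11450) encodes adiponectin, an insulin-sensitizing hormone that circulates as multimers. Its level was 0.6, 0.63 and 0.28 FPKM in the 3 day 0 samples, 374.15, 464.37 and 561.18 FPKM at day 4 and 752.67, 840.41 and 866.41 FPKM at day 8. The samples of each day lay apart from those of every other day, as those of 37% of tested genes did upwards in the early phase and 27.2% in the late phase. The early log2 fold change was 9.91 with a standard error (SE) of 0.21 (edgeR adjusted p = 1.1e-15). The late change was 0.86 (SE 0.1, edgeR adjusted p = 5.5e-06), a 1.81-fold rise that was past the p threshold and below the 2-fold threshold. Without day 4 replicate 3, the highest of its day, the late change was 1.01 and was called. By day 8 Adipoq ranked 63 among the 17284 genes with a mean FPKM above 0.

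Retn (57264) encodes resistin, a small cysteine-rich hormone made by white adipocytes in mice. It was at 0.17, 0.28 and 0.17 FPKM at day 0, 240.54, 311.83 and 377.29 FPKM at day 4 and 384.84, 394.71 and 394.96 FPKM at day 8. Most of its rise was therefore in place by day 4, and the day 4 samples were more widely spread than those of day 8. Their coefficient of variation was 22.1%, against 1.47% at day 8. The early log2 fold change was 10.57 (SE 0.26, edgeR adjusted p = 6.6e-15). It rests on 2, 3 and 2 counts at day 0, and the exact 95% counting interval of the ratio runs from 777 to 3980. The late change was 0.38 (SE 0.1, edgeR adjusted p = 0.0064) and was not called. The ratio of Adipoq to Retn in FPKM was 1.49 to 1.56 at day 4 and 1.96 to 2.19 at day 8, in ranges that did not overlap.

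Rarres2 (71660) encodes chemerin, a chemoattractant for immune cells that also acts on adipocyte formation. It stood at 0.91, 1.65 and 1.37 FPKM at day 0, 111.87, 148.96 and 164.31 FPKM at day 4 and 439.49, 461.34 and 500.55 FPKM at day 8. Unlike Retn, it gained more FPKM after day 4 than before. Its log2 fold change was 6.81 early (SE 0.19, edgeR adjusted p = 3.8e-14) and 1.77 late (SE 0.1, edgeR adjusted p = 8.5e-10), and both were called. Rarres2 shares 28.4% of its 50-base stretches with Lrrc61, a gene on the opposite strand, and its expected counts were fractional in all 9 samples. The sources used here do not say whether strand was used in counting, so its reads and those of Lrrc61 cannot be fully told apart. Lrrc61 changed less, with a mean of 6.45 ± 0.239 FPKM before induction and 8.19 ± 0.0115 FPKM on day 4 (SD, n = 3), and log2 changes of 0.39 early (SE 0.07) and 0.34 late (SE 0.06). The other 9 adipokine genes shared no such stretch with another gene.

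Apln (30878) encodes apelin, a peptide that acts on blood vessels and the heart and that adipocytes release in response to insulin. Its level was 5.54, 5.38 and 5.78 FPKM at day 0, 11.03, 14.52 and 13.55 FPKM at day 4 and 32.52, 38.27 and 41.06 FPKM at day 8. Its early change was the smallest of the 9 in the edgeR fit, and it rose in both phases. The early log2 fold change was 1.29 (SE 0.11, edgeR adjusted p = 2.4e-08) and the late change 1.56 (SE 0.09, edgeR adjusted p = 1.7e-09). The difference between the phases was not tested.

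Lep (16846) encodes leptin, the satiety hormone whose blood level follows fat mass. It had no counts in any day 0 sample, 8, 13 and 10 counts at day 4 and 49, 62 and 64 counts at day 8. In FPKM these are 0, then 0.12, 0.19 and 0.16, then 0.74, 0.94 and 0.98. The samples of the 3 days did not overlap, but Lep stayed at a low level throughout. Against a floor of 3 counts per library, its mean CPM was at least 3.53-fold higher at day 4 and at least 20.6-fold higher at day 8 than at day 0 (edgeR adjusted p = 2.9e-05 and 8.2e-09). The late rise was 5.77-fold, a log2 change of 2.53 (SE 0.27, edgeR adjusted p = 3.8e-06). At day 8 its mean of 0.887 ± 0.129 FPKM (SD, n = 3) ranked 11356 of 17284 genes.

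**Figure D2:**
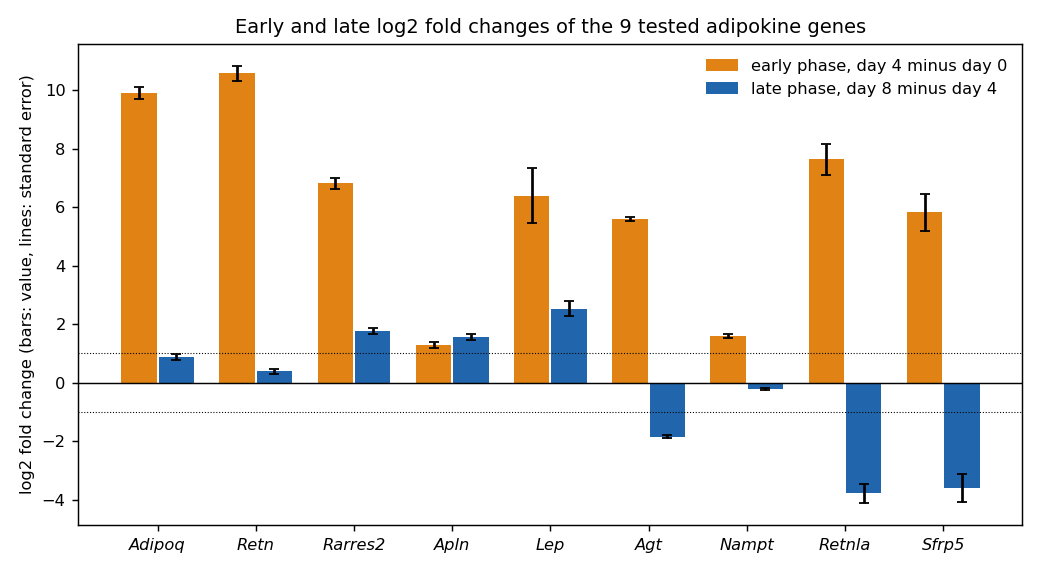
Log2 fold change (y axis) of the 9 tested adipokine genes in the early phase (day 4 against day 0) and the late phase (day 8 against day 4). Bars are edgeR values, lines the standard error and dotted lines a 2-fold change. All early bars are above 1, while Retnla, Agt and Sfrp5 have late bars below -1. The Lep early bar of 6.38 rests on a day 0 level of 0 counts and is not a measured size, and those of Retnla and Sfrp5 rest on 2 day 0 counts each.

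Agt (11606) encodes angiotensinogen, the precursor of the blood pressure peptide angiotensin II. It stood at 18.15, 19.57 and 20.65 FPKM at day 0, 861.12, 916.32 and 898.6 FPKM at day 4 and 237.15, 242.44 and 236.4 FPKM at day 8. The replicates of each day were close together and the days far apart. The gene rose 48-fold in the early phase, a log2 change of 5.59 (SE 0.06, edgeR adjusted p = 7.5e-19). It then fell by 1.86 on the log2 scale in the late phase (SE 0.05, edgeR adjusted p = 1.3e-13), 3.62-fold. It ended 13.3-fold above day 0, a log2 change of 3.73 (SE 0.06, edgeR adjusted p = 5e-17). At day 4 Agt alone took 0.159% to 0.17% of all counts.

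Nampt (59027) encodes nicotinamide phosphoribosyltransferase, the enzyme of the NAD salvage pathway that is also secreted and known as visfatin. Its level was 15.96, 15.65 and 15.11 FPKM at day 0, 43.22, 44.04 and 47.96 FPKM at day 4 and 35.69, 37.39 and 39.03 FPKM at day 8. Its early log2 fold change was 1.6 (SE 0.06, edgeR adjusted p = 3.4e-13). The late fall of 1.17-fold was past the p threshold but far below 2-fold (log2 change -0.22, SE 0.05, edgeR adjusted p = 0.0024). Together with Agt and Apln, Nampt was among the adipokine genes already above 5 FPKM in every day 0 sample.

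Retnla (57262) encodes resistin-like alpha, a relative of resistin found in white fat and in alternatively activated macrophages. It had 0, 1 and 1 counts at day 0, 103, 161 and 196 counts at day 4 and 18, 10 and 4 counts at day 8. In FPKM the day 4 samples were at 8.94, 13.82 and 17.44 and the day 8 samples at 1.56, 0.87 and 0.35. Its level thus stood out on day 4 alone. The ratio of day 4 to day 0, scaled to depth, was 236 (exact 95% counting interval 65.0 to 1960), and the ratio of day 4 to day 8 was 13.9 (9.73 to 20.6). The log2 fold change was 7.63 early (SE 0.53, edgeR adjusted p = 2.2e-09) and -3.79 late (SE 0.33, edgeR adjusted p = 1.4e-07). Without day 8 replicate 1 the late change was -4.38. Day 8 remained 17-fold above day 0 (interval 4.32 to 146) and was called (edgeR adjusted p = 0.0018). That call was lost with limma on log2(FPKM + 1) (0.81).

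Macrophage markers are given beside Retnla, since macrophages can also express it. Of 10 markers 4 passed the filter, and in the early phase only Lyz2 was called, lower (log2 change -2.1, SE 0.32, edgeR adjusted p = 2.1e-05), against 7.98% of all tested genes. Their summed level lay between 7.2 and 9.06 FPKM in the day 0 samples, 5.07 and 5.88 FPKM in the day 4 samples and 5.11 and 5.82 FPKM in the day 8 samples, and the most abundant was Cd14. The defining genes Ptprc and Adgre1 had 5 and 0 counts over the day 0 samples, 4 and 2 at day 4 and 5 and 0 at day 8. Itgam had 3 counts over the day 0 samples and none at day 8. Mrc1, a marker of alternatively activated macrophages, had 4, 27 and 3 counts over the samples of day 0, 4 and 8 and was thus highest on day 4, as Retnla was. Csf1r had 54, 89 and 79 counts, and its early log2 change of 0.75 (SE 0.33, edgeR adjusted p = 0.05) was not called. The part of such cells in the level of Retnla was not tested. In the late phase, in which Retnla fell, Lyz2 was called higher (log2 change 1.25, SE 0.36, edgeR adjusted p = 0.0093), against 4.24% of all tested genes.

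Sfrp5 (54612) encodes a secreted antagonist of Wnt ligands. It had 0, 0 and 2 counts at day 0, 40, 49 and 42 counts at day 4 and 0, 3 and 7 counts at day 8. In FPKM the day 4 samples were at 1.05, 1.27 and 1.13, and the samples of day 0 and day 8 overlapped below 0.2. The ratio of day 4 to day 0 was 67.2 (exact 95% counting interval 18.2 to 561), and that of day 4 to day 8 was 12.7 (6.69 to 27.1). The log2 fold change was 5.82 early (SE 0.64, edgeR adjusted p = 5.8e-07) and -3.62 late (SE 0.48, edgeR adjusted p = 1.4e-05). The late call was lost with limma on log2(FPKM + 1) (-0.98). Without day 0 replicate 3, which held both day 0 counts, the early change was 8.44, and without day 8 replicate 3 the late change was -4.7. Day 8 against day 0 was not called (log2 change 2.2, SE 1.12, edgeR adjusted p = 0.088). It was called without day 0 replicate 3 (4.82, edgeR adjusted p = 0.03) or without day 8 replicate 1 (2.78, edgeR adjusted p = 0.017), and was 1.12 without day 8 replicate 3.

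Fgf21 (56636) encodes a fasting hormone that signals through FGF receptors and the co-receptor beta-Klotho. It had 14, 4 and 6 counts at day 0, 1, 2 and 1 at day 4 and 8, 7 and 7 at day 8, or 0.74, 0.24 and 0.32, then 0.05, 0.11 and 0.05, then 0.43, 0.37 and 0.38 FPKM. Unlike the other 9 genes it was lowest on day 4, although its counts were low in all samples and it was not tested with the other genes. With no filter, over 19019 genes, its log2 change was -2.43 early (SE 0.73, edgeR adjusted p = 0.0053) and 2.4 late (SE 0.74, edgeR adjusted p = 0.011). The counting ratio of day 0 to day 4 was 5.85 (exact 95% interval 2.01 to 23.2), and that of day 8 to day 0 was 0.971 (0.519 to 1.81).

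The order of the genes by mean FPKM changed with the day. At day 0 it was led by Agt (19.5 ± 1.25), Nampt (15.6 ± 0.43), Apln (5.57 ± 0.201) and Rarres2 (1.31 ± 0.374), whose sample ranges did not overlap. Below them, the ranges of Adipoq and Fgf21 overlapped, as did those of Fgf21 and Retn, and Retnla, Sfrp5 and Lep were near 0. At day 4 Agt was first (892.0 ± 28.2, rank 56 of 17581 genes), before Adipoq (466.6 ± 93.5) and Retn (309.9 ± 68.4), whose sample ranges overlapped. Rarres2 (141.7 ± 27.0) and Nampt (45.1 ± 2.53) followed, then Retnla (13.4 ± 4.27) and Apln (13.0 ± 1.8), which overlapped. At day 8 the order was Adipoq (819.8 ± 59.6), Rarres2 (467.1 ± 30.9), Retn (391.5 ± 5.77) and Agt (238.7 ± 3.29), with no overlap between neighbours. Nampt (37.4 ± 1.67) and Apln (37.3 ± 4.36) then overlapped, as did Retnla and Lep. Agt thus went from the highest to the fourth place between day 4 and day 8, and the FPKM ratio of Adipoq to Agt went from between 0.434 and 0.625 to between 3.17 and 3.67.

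**Figure D3:**
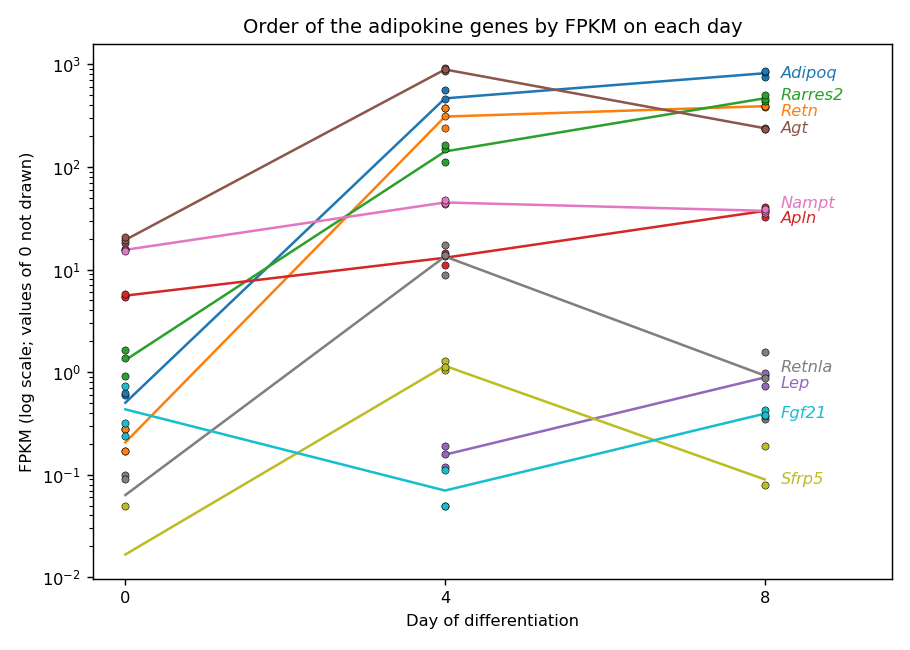
FPKM (y axis, log scale) of the 10 adipokine genes against the day of differentiation. Points are samples, lines join the daily means, and values of 0 are not drawn. Agt leads at day 4 with 892.0 FPKM and Adipoq at day 8 with 819.8 FPKM, while Sfrp5, Lep and Fgf21 stay below 2 FPKM on all days.

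The day 4 samples differed in the level of several adipocyte genes. Replicate 1 was lowest and replicate 3 highest in Adipoq, Retn, Rarres2, Retnla and Nampt. The same order held in the summed adipocyte markers (6047, 7135 and 8427 FPKM) and in Fabp4 (3314.41, 3978.54 and 4862.7 FPKM). Fabp4 is the most abundant gene in that sum, so they are not separate measures. Not every marker was spread as widely at day 4, with Cidec at 773.3 ± 132.2 FPKM and Plin4 at 81.9 ± 2.19 FPKM (SD, n = 3). Of the tested adipokine genes, Agt, Apln, Lep and Sfrp5 did not follow that order and were highest in replicate 2. As a share of Fabp4 in the same sample, Adipoq was 11.3% to 11.7% at day 4 and Retn 7.26% to 7.84%, so that on this scale the 3 samples lay close together. By day 8 Adipoq was at 16.2% to 17.7% of Fabp4, Rarres2 at 9.34% to 10.2% (from 3.38% to 3.74% at day 4) and Agt at 4.83% to 5.1% (from 18.5% to 26.0%). Retn was at 7.99% to 8.27%. The part of the adipocyte marker level in the adipokine changes was not tested.

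**Figure D4:**
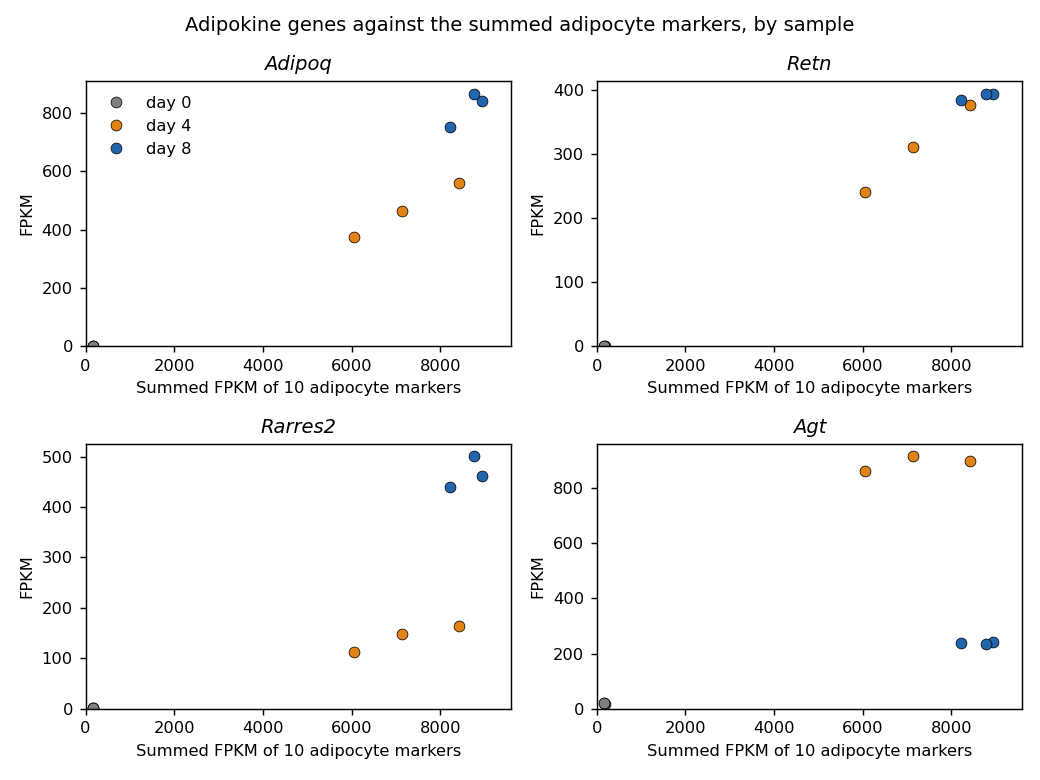
FPKM of Adipoq, Retn, Rarres2 and Agt (y axes, linear) against the summed FPKM of 10 adipocyte markers (x axes, linear) in the 9 samples, coloured by day. At day 4 Adipoq and Retn increase with the marker sum, which runs from 6047 to 8427 FPKM. Each of the genes at day 8 lies apart from day 4, Agt lower and the others higher. The marker sums of these days overlap, in that the highest at day 4 (8427 FPKM) is above the lowest at day 8 (8219 FPKM).

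Some genes followed the adipokine genes closely over the 9 samples. Pearson correlations of log2 CPM across 11471 genes are given as a description, since the samples fall into 3 days that all these genes share. Retn was most like Fabp4, the fatty acid binding protein of adipocytes (r = 0.9999), and Mrap, the accessory protein of the ACTH receptor (r = 0.9997). Among the genes closest to Agt was Glul, glutamine synthetase (r = 0.9996), which peaked with it at day 4 at 284.5 FPKM and was at 81.5 FPKM at day 8. Among those closest to Adipoq was Tmem120b (r = 0.9989). Rarres2 was most like Lgals12, an adipocyte galectin (r = 0.999), and Tmem120a (r = 0.999). Apln was most like Ffar4, a receptor for long-chain fatty acids (r = 0.9981), which had a mean of 0 FPKM at day 0 and reached means of 0.893 and 19.6 FPKM on the later days, and like Lrrc8d (r = 0.9978). For Nampt the genes were Agpat2, an enzyme of triglyceride synthesis (r = 0.9985), and Pim3 (r = 0.9984). For the low genes they were Vhl and Trp53inp2 for Lep (r = 0.9981 for both), Smim4 (r = 0.9918) and Usp2 (r = 0.9878) for Retnla, and Rtfdc1 (r = 0.9869) and Plekhj1 (r = 0.9811) for Sfrp5. Among the adipokine genes themselves r was highest between Adipoq and Retn (0.998) and between Lep and Apln (0.995), and lowest between Apln and Sfrp5 (0.159).

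Receptors for these hormones were measured in the same cells. Of 16 receptor genes 10 were tested, and 5 were called higher in the early phase, 2 in the late phase and 4 over the whole process, with none called lower. Over all tested genes 9.77%, 4.24% and 10.3% were called higher in these comparisons. The filter on low counts bears on these counts, since Klb had 6 counts over the day 0 samples and passed through later days. With at least 10 counts in every sample Klb and Agtr2, the only receptor genes called in the late phase, were not tested. Klb, which encodes the co-receptor for FGF21, went from 0.03 ± 0.03 FPKM at day 0 to 1.91 ± 0.266 at day 4 and 7.27 ± 0.73 at day 8 (SD, n = 3). The change on the log2 scale was 6.0 early (SE 0.33, edgeR adjusted p = 1.2e-10) and 1.97 late (SE 0.13, edgeR adjusted p = 4.4e-09). Without day 0 replicate 3 its early change was 6.89. Agtr2, a receptor for angiotensin II, went from 0.353 ± 0.199 to 2.87 ± 0.727 and 7.24 ± 1.2 FPKM and was called higher in both phases (log2 change 3.04, SE 0.29, and 1.38, SE 0.18). The late call was lost with glmTreat (adjusted p = 0.2). Agtr1a, another receptor for angiotensin II, had 1, 3 and 27 counts over the samples of day 0, 4 and 8. Agtr1b was not listed in any sample and so could not be tested.

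The adiponectin receptors differed from each other. Adipor2 rose from 18.9 ± 0.88 FPKM to 58.6 ± 2.96 FPKM in the early phase (log2 change 1.7, SE 0.06, edgeR adjusted p = 1.1e-12), whereas Adipor1 stood at 48.8 ± 0.903, 51.4 ± 0.322 and 57.3 ± 0.517 FPKM and was not called in any comparison. Cdh13, which encodes T-cadherin and binds adiponectin multimers, was called higher in the early phase (log2 change 1.24, SE 0.07, edgeR adjusted p = 9.7e-11), and its late change of -0.89 (SE 0.07) was not called. Cmklr1, the signalling receptor for chemerin, was called higher in the early phase at low level, from 0.33 ± 0.08 to 0.747 ± 0.16 FPKM (log2 change 1.24, SE 0.25, edgeR adjusted p = 0.00038). That call was lost with limma on log2(FPKM + 1) (0.39) and log2(FPKM + 0.1) (0.98) and with glmTreat (adjusted p = 0.43). The leptin receptor gene Lepr was at 0.323 ± 0.121, 0.247 ± 0.0802 and 0.263 ± 0.0503 FPKM and was not called. The apelin receptor gene Aplnr had 11, 12 and 3 counts over the samples of the 3 days and was not tested.

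Of 10 genes that process angiotensinogen or its products 6 were tested. None was called in the early phase, against 9.77% of all tested genes called higher and 7.98% lower, and without the fold threshold 2 were higher and 1 lower by edgeR, against 35.5% and 33.7%. The share higher without the fold threshold lies near that of all tested genes, and the share lower is below it. Renin, Ren1, which makes the first cut in angiotensinogen, had 4.0, 31.81 and 28.48 counts over the samples of day 0, 4 and 8 and was not tested. Ace, which makes angiotensin II, had 6, 13 and 5 counts. In the late phase only Mme, the protease neprilysin, was called, and higher (log2 change 2.04, SE 0.44, edgeR adjusted p = 0.0013), against 4.24% of all tested genes. It had 11 counts over the day 4 samples and 45 over the day 8 samples, through which alone it passed the filter. That call was lost with limma on log2(FPKM + 1) (0.13) and log2(FPKM + 0.1) (0.79) and with glmTreat (adjusted p = 0.13). Without the fold threshold 2 of the 6 were higher and 3 lower in the late phase, against 22.5% and 22.7%.

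Of 17 genes that make or use NAD, the product of the NAMPT pathway, 14 were tested and only Nnmt was called in the early phase, a share no higher than the 9.77% of all tested genes. By the adjusted p alone 8 of the 14 were higher and 1 lower, against 35.5% and 33.7%. Nnmt, which methylates nicotinamide and so draws on the substrate of NAMPT, went from 18.5 ± 0.488 to 58.8 ± 1.03 FPKM (log2 change 1.74, SE 0.06, edgeR adjusted p = 3.1e-13). In the late phase only Bst1, an NAD-consuming ectoenzyme, was called, and lower (-1.47, SE 0.54, edgeR adjusted p = 0.037), against 2.81% of all tested genes. That call rests on 35 and 12 counts, was lost without day 4 replicate 1 or 2 and without day 8 replicate 1 or 3, and was also lost in DESeq2 (adjusted p = 0.06), with limma on log2(FPKM + 1) (-0.2) and log2(FPKM + 0.1) (-0.92) and with glmTreat (adjusted p = 1). Over the whole process Nnmt, Cd38 and Sirt3 were called higher and Bst1 lower, against 10.3% and 7.7% of all tested genes. The calls of Cd38, Sirt3 and Bst1 were lost with limma on log2(FPKM + 1) (0.45, 0.98 and -0.28) and with glmTreat (adjusted p = 0.081, 0.071 and 0.22).

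All 12 genes of adiponectin assembly and secretion, which act in the endoplasmic reticulum, were tested. In the early phase, in which Adipoq rose most, only Plod1 was called, from 58.8 ± 3.84 to 132.7 ± 8.87 FPKM (log2 change 1.24, SE 0.07, edgeR adjusted p = 3e-10). That is 1 of 12, against 9.77% of all tested genes called higher. By the adjusted p alone 10 of the 12 were higher and none lower, against 35.5% and 33.7%, so that most of the list rose by less than 2-fold. PLOD1 is a lysyl hydroxylase, and hydroxylated lysines are needed for adiponectin multimers. In the late phase Ero1l, the oxidase that supports disulfide formation and adiponectin release, went from 44.4 ± 3.77 to 232.1 ± 50.5 FPKM (log2 change 2.43, SE 0.13, edgeR adjusted p = 4.3e-10). P4ha1, a prolyl hydroxylase subunit, was called higher too (1.08, SE 0.07, edgeR adjusted p = 3.3e-09). The late count of 2 of 12 stands against 4.24% of all tested genes, and the call of P4ha1 was lost with glmTreat (adjusted p = 0.83). Over the whole process 5 of the 12 were called higher and none lower, against 10.3% and 7.7% of all tested genes. The call of Gstk1 (1.13, SE 0.14) was lost with both limma settings (0.88 and 0.99), with glmTreat (adjusted p = 0.41) and without day 8 replicate 1 (0.98). Erp44, the chaperone that retains adiponectin, stood at 26.4 ± 1.3 FPKM at day 0 and 26.9 ± 1.14 FPKM at day 8.

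**Figure D5:**
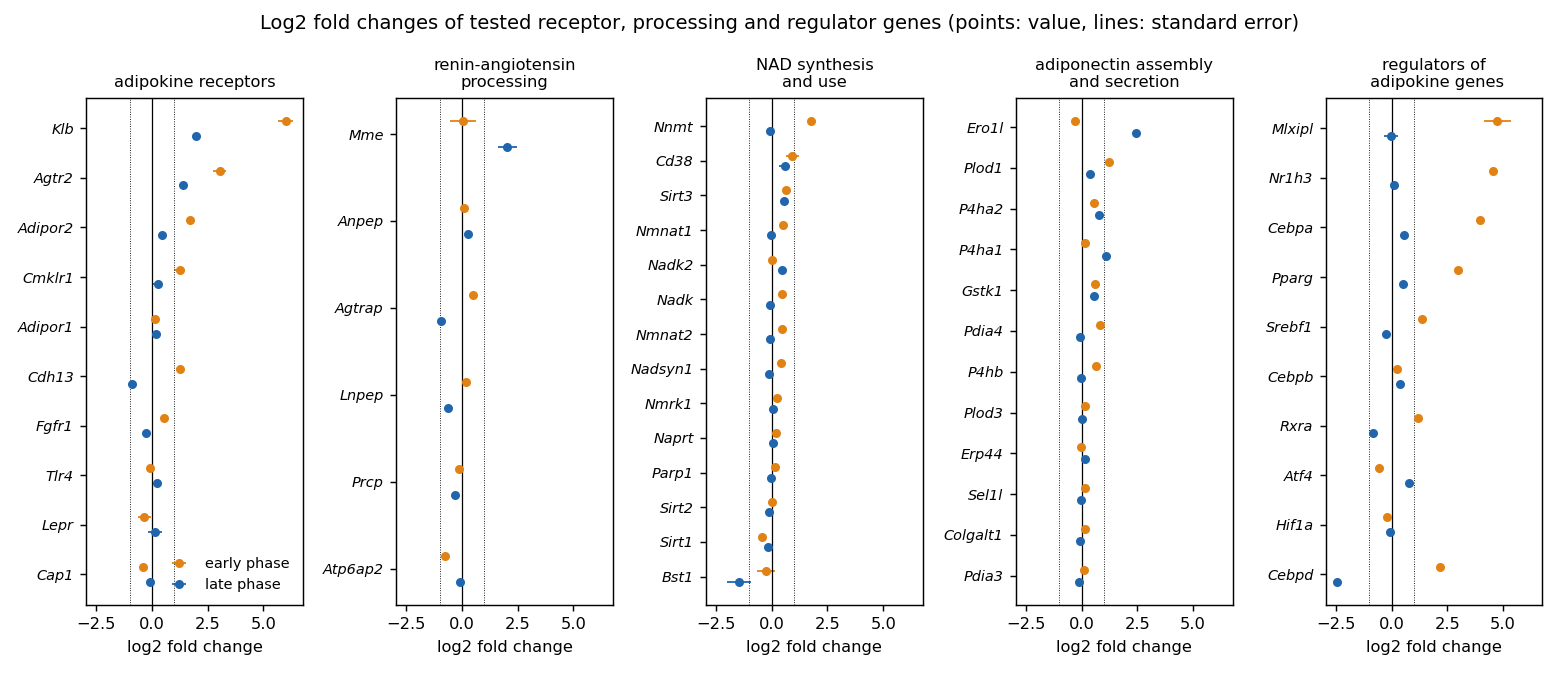
Log2 fold changes (x axes) of the tested genes in 5 lists of receptors, processing enzymes and regulators, in the early and the late phase. Points are edgeR values, lines the standard error and dotted lines a 2-fold change. Klb and Agtr2 among receptors lie above 1 in both phases, Ero1l only in the late phase, and Cebpd at 2.19 early and -2.44 late. The early point of Mlxipl rests on 2 counts at day 0.

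Of 11 transcription factor genes known to act on adipokine promoters, 10 were tested and 7 were called higher in the early phase, against 9.77% of all tested genes. Pparg, which encodes the main regulator of fat cell formation, went from 11.5 ± 0.161 to 93.2 ± 6.41 FPKM (log2 change 3.0, SE 0.07, edgeR adjusted p = 4e-15), and Cebpa from 5.89 ± 0.361 to 87.2 ± 15.8 FPKM (3.96, SE 0.11, edgeR adjusted p = 4.2e-14). Nr1h3, the liver X receptor alpha, rose by 4.56 (SE 0.12, edgeR adjusted p = 1.7e-14) and Mlxipl had 2 counts over the day 0 samples and 62 over the day 4 samples (edgeR adjusted p = 3e-06). The early call of Mlxipl was lost with limma on log2(FPKM + 1) (0.35). Mlxipl passed the filter on low counts only through later days, which bears on the count of 7. Ppara, with 1, 22 and 38 counts over the samples of day 0, 4 and 8, did not pass it. Cebpd, an early C/EBP gene that hormones induce, was the only regulator called in the late phase, in which 2.81% of all tested genes were called lower. It was at 23.0 ± 2.24 FPKM at day 0, 100.6 ± 1.93 at day 4 and 17.9 ± 0.558 at day 8, with log2 changes of 2.19 (SE 0.06) and -2.44 (SE 0.06, edgeR adjusted p = 6e-14). Its level was highest at day 4, as were those of Agt, Nampt, Retnla and Sfrp5, and among the other regulators Rxra (44.1 ± 1.1, 95.0 ± 4.97 and 52.2 ± 1.44 FPKM) and Srebf1 (14.1 ± 0.181, 34.2 ± 1.02 and 28.2 ± 0.819 FPKM) were highest then too. So was Mlxipl by mean level, though by little (0.28 ± 0.07 FPKM at day 4 and 0.267 ± 0.0702 FPKM at day 8). Hif1a was at 43.7 ± 0.875, 36.6 ± 1.91 and 33.8 ± 1.09 FPKM and was not called.

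A list of 9 paralogs of Retn, Retnla, Sfrp5, Apln and Fgf21 was also examined. Of these only Sfrp2, a relative of Sfrp5, passed the filter, and Retnlb had 1 count over the 9 samples together. Sfrp2 was at 46.2 ± 2.01 FPKM at day 0, 12.9 ± 2.13 at day 4 and 39.1 ± 0.913 at day 8. It fell by 1.77 on the log2 scale in the early phase (SE 0.08, edgeR adjusted p = 1.5e-11) and rose by 1.64 in the late phase (SE 0.08, edgeR adjusted p = 2.3e-10), opposite in sign to Sfrp5 in both. Over all 7 lists, 65 of 92 genes were tested. In the early phase 27.7% of the 65 were called higher and 7.69% lower, in the late phase 16.9% and 3.08%, and over the whole process 36.9% and 3.08%. The shares of all tested genes were 9.77% and 7.98%, 4.24% and 2.81%, and 10.3% and 7.7%, so the shares called lower were near these in the early and late phases. The median log2 fold change of the 65 genes was 0.24, 0.17 and 0.37. The filter on low counts bears on the shares called higher, since genes such as Klb, Mlxipl and Lgals12 passed it only through later days. With at least 10 counts in every sample 13 rather than 18 were called higher early. In the late phase 6 rather than 11 were, and over the whole process 18 rather than 24.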

How the data were processed

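RNA from 3T3-L1 cells at day 0, 4 and 8 of differentiation was sequenced, with 3 replicates per day taken from the sample titles. The authors removed poor reads, mapped the rest with HISAT/Bowtie2 and quantified genes with RSEM. The submitters' processing notes name CASAVA 1.4 and Bowtie2. The genome build and other versions are not given in the sources used here, and the labels name a BGIseq500 library kit while the methods name an Illumina instrument. For each sample the authors deposited RSEM's expected count per gene, not normalized, and the FPKM, scaled to gene length and depth. A gene missing from a sample's list was taken as 0. The deposited lengths were not used in any test.

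Counts were rounded to integers, and edgeR 4.0.16 was run in R 4.3.3 (filterByExpr by day, TMM factors from 0.954 to 1.05, glmQLFit and glmQLFTest, all 9 samples, 1 coefficient per day). The SE is the log2 fold change divided by the root of F. The common coefficient of variation was 0.0538, and log2 CPM used a prior count of 2. Alternatives used DESeq2 1.42.0, limma 3.58.1 on log2(FPKM + 1) and log2(FPKM + 0.1), edgeR's exact test and glmTreat, RLE factors or library size alone, other filters, only the 2 days compared, a replicate block and leaving out each sample. The steps were tested on simulated data. Shared stretches were counted in GENCODE vM21 transcripts.

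The adipokine genes and all lists were chosen with earlier results of these data known, and the sensory neuron list after the files had been seen. The genes named are the 10 adipokine genes, genes of the fixed lists (examples being the largest called rise and fall, others for their role) and the 2 genes most correlated with each tested adipokine gene, among those whose log2 CPM averaged 1 or more and that had 10 counts in at least 3 samples. Some genes covered by the correlation rule are not reported here. Examples outside this rule were chosen after their values were seen.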

Additional observations from a re-analysis of the deposited data

How the results depend on the processing

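For the adipokine genes, 517 of 525 values under the alternatives kept the direction and the side of the threshold, 5 fell below it, 3 passed it and 0 changed sign. Below 2-fold with limma on log2(FPKM + 1), which understates low genes, were Lep (0.21 early, 0.7 late and 0.91 over the whole process), Sfrp5 late (-0.98) and Retnla over the whole process (0.81). The calls gained were Adipoq late without day 4 replicate 3 (1.01) and Sfrp5 over the whole process without day 0 replicate 3 (4.82) or day 8 replicate 1 (2.78).

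With at least 10 counts in every sample, which removes genes near 0 at day 0, 4 adipokine genes were called higher early, 4 higher over the whole process and 1 lower late. With no filter 1 (Fgf21) was called lower in the early phase, and with no fold threshold 5 were called higher in the late phase. Leaving out each sample gave 9 called higher early, 3 to 4 higher and 3 lower late, and 8 to 9 higher over the whole process.

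For the listed genes with no fold threshold, 41 were called higher and 10 lower early, 30 and 11 late, and 44 and 12 over the whole process. With at least 10 counts in every sample 13 were called higher early, 6 higher and 1 lower late, and 18 higher and 1 lower over the whole process. The late counts and the 1 lower over the whole process were the same with glmTreat, which called 17 higher early and 19 higher over the whole process. Limma on log2(FPKM + 1) called 1 lower late and 1 lower over the whole process, and DESeq2 and limma on log2(FPKM + 0.1) called 1 lower late. Leaving out each sample gave 19 to 22 called higher and 5 to 6 lower early, 10 to 13 and 1 to 2 late, and 25 to 28 and 2 to 3 over the whole process. Among all tested genes, the early calls higher and lower were 1285 and 1050, against 708 and 565 with limma on log2(FPKM + 1), 4676 and 4430 with no fold threshold, 936 and 664 with glmTreat and 831 and 754 with at least 10 counts. In the late phase they were 558 and 370, against 224 and 136, 2964 and 2989, 248 and 129, and 310 and 173 in the same order, and over the whole process 1356 and 1013, against 753 and 528, 4583 and 4756, 1015 and 571, and 913 and 682.

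The replicate block gave the same counts, 9 adipokine genes higher early, 3 higher and 3 lower late and 8 higher over the whole process, and changed no call among the 89 gene values computed. Over all tested genes it moved the calls higher and lower to 1287 and 1053 early, 556 and 367 late and 1360 and 1010 over the whole process. Samples with the same replicate number deviated together little, if at all (mean r 0.031, from -0.035 to 0.075, against -0.015 for other numbers). Although 4 of 9 samples correlated best with their own number on both other days, every such r was low, and the main fit did not pair the samples. At this depth Retn, Lep, Sfrp5, Retnla and Fgf21 were near the floor of 3 counts on at least 1 day, and their fold sizes there are uncertain.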

Other observations

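Other secreted factors of adipose tissue, a list of 17 genes of which 12 were tested, did not share a common course. In the early phase 4 were called higher and 4 lower, in the late phase 5 higher and 0 lower, and over the whole process 6 higher and 1 lower. The shares of all tested genes were 9.77% and 7.98%, 4.24% and 2.81%, and 10.3% and 7.7%. With edgeR and no fold threshold, 10 were higher and 1 lower in the late phase, against 22.5% and 22.7% of all tested genes. With at least 10 counts in every sample neither Lgals12 nor Nrg4 was tested, which bears on the counts called higher. Lgals12, an adipocyte galectin, went from 0.04 ± 0.0173 FPKM at day 0 to 7.92 ± 1.46 at day 4 and 23.9 ± 2.12 at day 8 (SD, n = 3), and Lcn2, the siderophore-binding lipocalin, from 1.39 ± 0.244 to 104.3 ± 2.78 and 58.0 ± 7.62 FPKM. Angptl4, an inhibitor of lipoprotein lipase, rose by a log2 change of 3.16 in the early phase (SE 0.06, edgeR adjusted p = 1.1e-16).

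The genes called lower in the early phase were Ccl2, Fbn1, Wisp2 and Igf1. Ccl2, the monocyte chemoattractant, went from 61.6 ± 10.9 FPKM at day 0 to 5.93 ± 1.17 at day 4 and 7.36 ± 0.717 at day 8, and its log2 change of 0.36 in the late phase was not called. The other 3 were called higher again in the late phase. The late call of Wisp2 was lost with limma on log2(FPKM + 1) (a change of 1.0, not above 2-fold) and with glmTreat (adjusted p = 0.38), the late call of Nrg4 (1.01) was lost in 6 of 19 alternatives (0.75 with limma on log2(FPKM + 1), without day 4 replicate 1 at 0.9 and without day 8 replicate 2 at 0.94, and glmTreat adjusted p = 1), the whole-process call of Vegfa (1.11) in 4 of 20 (lowest 0.97, glmTreat adjusted p = 0.22), and the early call of Igf1 was lost with limma on log2(FPKM + 1) (-0.99). Fbn1, which encodes fibrillin-1, the precursor of the hormone asprosin, was at 57.4 ± 3.78, 13.1 ± 2.09 and 35.8 ± 2.08 FPKM. Igf1, a growth factor, was at 4.3 ± 0.589, 1.67 ± 0.131 and 10.6 ± 0.825 FPKM, above its day 0 level at day 8 (log2 change 1.41, SE 0.08, edgeR adjusted p = 3.1e-10). The inflammatory cytokine genes Il6 and Tnf had 40 and 2 counts over the day 0 samples and were not tested, and Rbp4 had 1 count over the 9 samples together.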
